A study of Beta vulgaris with 6 samples.

Results

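The core leaf circRNAs of sugar beet (Beta vulgaris) are the 39 circular RNAs that had reads in all 6 libraries of a drought experiment, out of 563 listed in all. The members were chosen by their read counts, with a count above 0 required in each library, so their presence is a definition and not a result. Leaves of genotype KWS9147 were profiled from drought-treated plants (3 libraries) and from well-watered plants (3 libraries). Both groups share the genotype, the organ and total RNA as the starting material. The labels give neither the severity nor the length of the drought, and they do not say whether the libraries of a group came from separate plants. The p-values below therefore rest on the spread between these libraries, which may be technical. For the main edgeR test, that spread was taken from circRNAs of similar abundance and not from each member alone.

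Circular RNAs are loops formed when a downstream splice donor is joined to an upstream splice acceptor, a reaction called back-splicing. They have no free ends and resist exonucleases, and in sequencing reads they are recognised by the back-splice junction. In plants they have been described in many organs and under several stresses, and the function of most of them is unknown. The circRNAs here carry numbers only. None of the core names (0 of 39) matched an entry among the RefSeq genes of assembly EL10.2, so host genes, positions, lengths and sequences were not analysed here, and the leaf label could not be checked against marker genes.

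The core held 7109, 10024 and 4684 reads in the drought libraries (replicates 1, 2 and 3), against 3871, 4675 and 3473 reads in the well-watered libraries. As a share of all reads listed in the table this was 82.8%, 81.1% and 81.7% under drought. In well-watered leaves it was 88.8%, 90.5% and 92.1%. The 95% Wilson intervals of these shares ran from 80.4% to 83.6% over the drought libraries and from 87.9% to 92.9% over the well-watered ones, and they cover counting error only, since no molecular identifiers are stated and PCR copies may be counted more than once. The mean share was 81.9% ± 0.840 under drought and 90.5% ± 1.64 in the well-watered group (SD over 3 libraries per group), and every drought library lay below every well-watered one. No test was made of this value, since the members were picked from the same counts. The library totals implied by the deposited TPM are larger than the summed listed reads, and what they count is not given in the sources used here. Against those totals the core was 58.5% ± 0.342 under drought and 62.9% ± 0.745 in the well-watered group, and the difference in mean share was -4.41 percentage points in place of -8.59.

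Drought libraries held more reads both inside and outside the core. Core reads averaged 7272 ± 2674 under drought and 4006 ± 612.3 in the well-watered group (SD over 3 libraries per group), a ratio of 1.82, with drought replicate 3 barely above well-watered replicate 2. Reads of all other circRNAs averaged 1618 ± 653.0 and 425.3 ± 111.2 in the same order (SD over 3 libraries per group), a ratio of 3.80. The number of reads sequenced per library is not given in the sources used here, so the part of depth in these ratios cannot be told apart from that of the leaves. In bulk leaf RNA, fewer (or more) cells of a type and less (or more) RNA per cell cannot be told apart either. The 39 members were 14.2% ± 3.42 of the circRNAs found in a drought library and 35.1% ± 6.41 of those found in a well-watered library (SD over 3 libraries per group). The rule fixes the members at 39 in every library, so this share only restates the number of circRNAs found. That number averaged 285.7 ± 66.06 under drought and 113.3 ± 19.14 in the well-watered group (SD over 3 libraries per group).

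**Figure D1:**
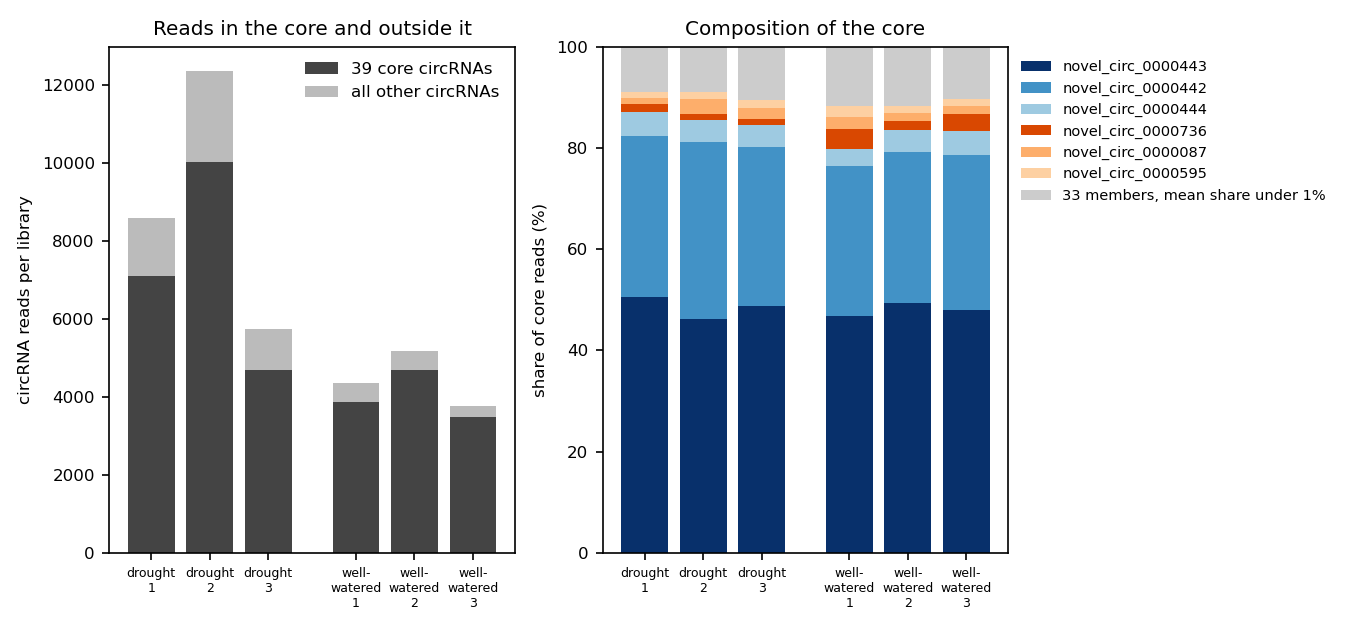
Left, reads per library in the 39 core circRNAs (dark) and in all other circRNAs (light). Right, share of core reads (%) of the 6 most abundant members and of the 33 others in each drought and well-watered library. The core makes up 81.1% to 82.8% of each drought library and 88.8% to 92.1% of each well-watered one, and novel_circ_0000443 and novel_circ_0000442 fill most of every bar.

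Most circRNAs that missed the rule by 1 library lacked reads in a well-watered one. Of the 20 circRNAs found in 5 libraries, 9 lacked reads in well-watered replicate 3, 5 in well-watered replicate 1, 4 in well-watered replicate 2, and 1 each in drought replicates 1 and 3. Just inside the rule, novel_circ_0000241 had 3, 8 and 2 reads under drought, against 14, 5 and 9 in the well-watered libraries. novel_circ_0000271 had 4, 15 and 8 reads under drought, against 6, 10 and 2 in the well-watered libraries. novel_circ_0000889 had 22, 19 and 6 reads under drought, against 15, 11 and 2 in the well-watered libraries. Just outside it, each absent from 1 well-watered library, novel_circ_0000335, novel_circ_0000774 and novel_circ_0000730 had 171, 126 and 109 reads in all, more than the 41, 45 and 75 reads of the members just inside. novel_circ_0000335 had 48, 65 and 41 reads under drought and 5, 0 and 12 in the well-watered libraries. Among the 39 circRNAs with the most reads in the table, 30 were members, and all members were among the first 100. With a minimum of 5 reads in every library 29 members would remain, and with a minimum of 10 reads 13.

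Abundance within the core was steeply graded. novel_circ_0000443 and novel_circ_0000442 each held over 10% of the core reads and together took 81.2% ± 1.00 under drought and 78.1% ± 1.46 in the well-watered group (SD over 3 libraries per group). The next 4 members, novel_circ_0000444, novel_circ_0000736, novel_circ_0000087 and novel_circ_0000595, had mean shares between 1% and 10% and together held 9.33% ± 0.611 under drought and 10.7% ± 1.44 in the well-watered group. The other 33 members, each under 1%, held 9.42% ± 0.899 and 11.1% ± 0.800 in the same order. Their totals over the 6 libraries lay between 35 and 254 reads. By the rule no member has a count of 0, and the lowest count of a member was 2 reads. For scale, 3 reads equal 0.0299% of core reads in drought replicate 2 and 0.0864% in well-watered replicate 3.

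novel_circ_0000443 had 3600, 4640 and 2282 reads under drought, against 1811, 2309 and 1668 in the well-watered libraries. It ranked first in every library, with 48.5% ± 2.18 of core reads under drought and 48.1% ± 1.30 in the well-watered group (SD over 3 libraries per group). The difference was smaller than the spread between replicates, and the groups overlapped. novel_circ_0000442 had 2251, 3492 and 1480 reads under drought, against 1150, 1397 and 1064 in the well-watered libraries, and it ranked second throughout. Its share was 32.7% ± 1.85 under drought and 30.1% ± 0.493 in the well-watered group (SD over 3 libraries per group). Here the groups did not overlap, although the nearest libraries lay within counting error of each other. Drought replicate 3 had 31.6% (95% Wilson interval 30.3% to 32.9%) and well-watered replicate 3 had 30.6% (29.1% to 32.2%).

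A ratio of reads within 1 library needs no scaling. The ratio of novel_circ_0000442 to novel_circ_0000443 was 0.625, 0.753 and 0.649 in the drought libraries, against 0.635, 0.605 and 0.638 in the well-watered ones. The values overlapped, since drought replicate 1 lay below 2 well-watered libraries. The mean log2 ratio was higher by 0.11 under drought (exact two-sided permutation p = 0.30, adjusted over 2 ratios p = 0.50), and by 0.03 without drought replicate 2. The ratio of novel_circ_0000444 to novel_circ_0000443 averaged 0.0939 ± 0.00478 under drought and 0.0858 ± 0.0127 in the well-watered group (SD over 3 libraries per group, exact two-sided permutation p = 0.50, adjusted p = 0.50). With 3 libraries against 3 this test cannot go below 0.10.

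The ranks below the leading pair were less fixed. novel_circ_0000444 had rank 3 in 5 libraries and rank 4 in well-watered replicate 1, where novel_circ_0000736 had rank 3. novel_circ_0000736 had ranks 4, 6 and 7 in the drought libraries and 3, 4 and 4 in the well-watered ones. novel_circ_0000087 and novel_circ_0000595 kept to ranks 4 to 6 in all libraries. The position of novel_circ_0000048 ran from 7 in well-watered replicate 3 to 33 in drought replicate 2.

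**Figure D2:**
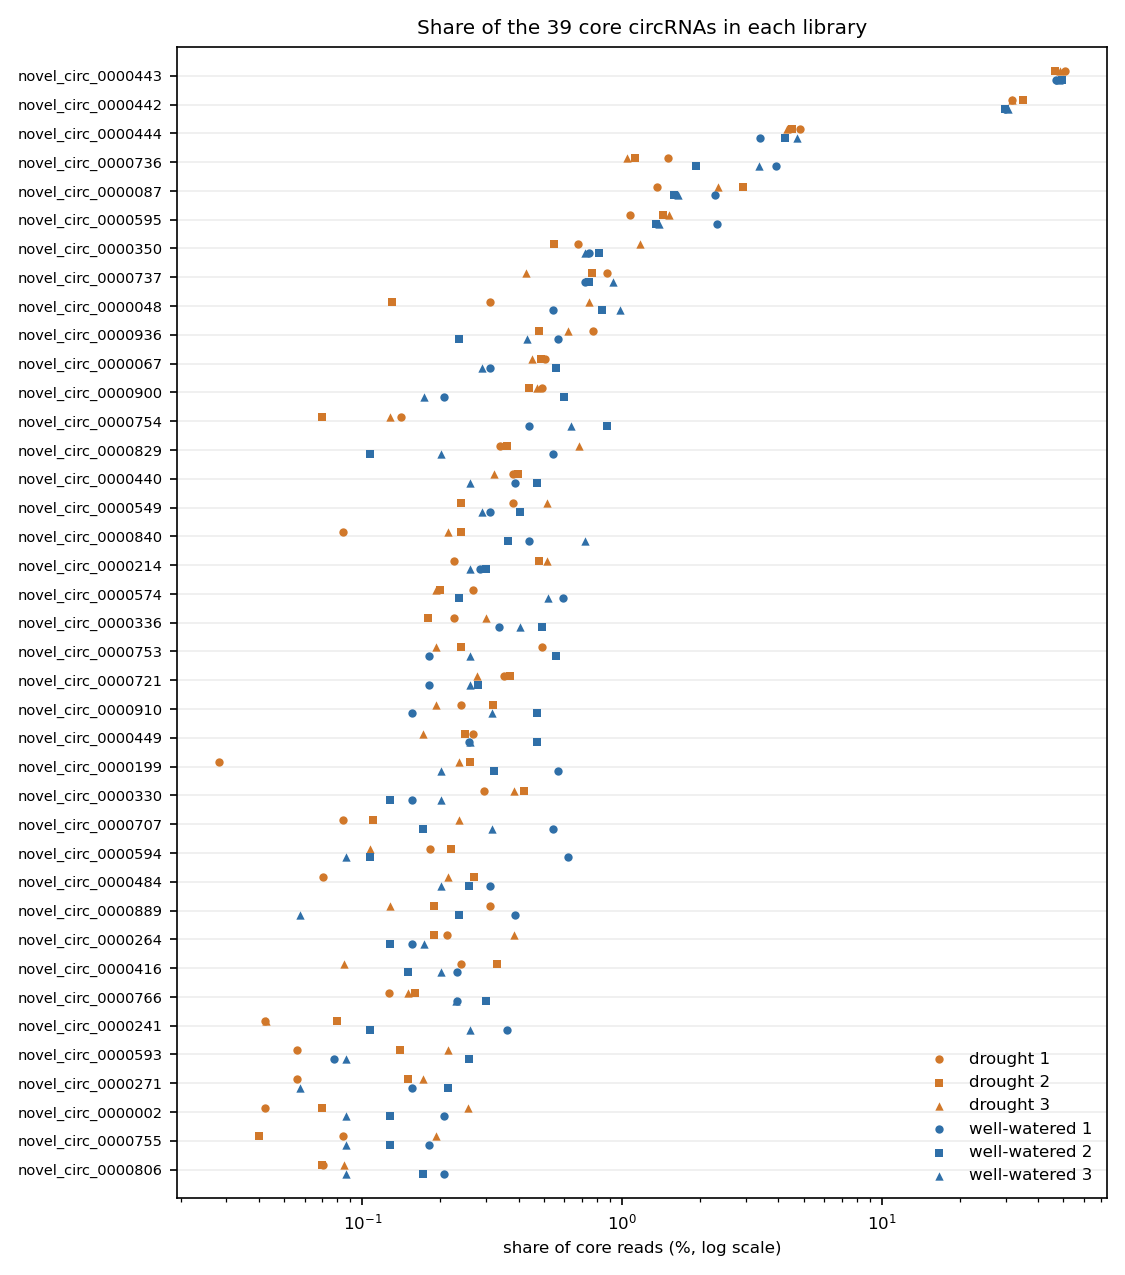
Share of core reads (%, log scale) of each of the 39 core circRNAs, ordered by mean share, with 1 point per library (drought orange, well-watered blue). Shares run from 0.0281% to 50.6%. In 29 members the points of both groups overlap, and in 10, novel_circ_0000736 and novel_circ_0000754 among them, they do not.

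Members were tested on the counts with edgeR's quasi-likelihood test, fitted to all 210 circRNAs with at least 10 reads in total, with the sum of the core reads as library size. All 39 members passed that filter, the lowest total of a member being 35 reads. An adjusted p under 0.05 was reached by 2 members (5.13%), both lower under drought, against 3.81% of all circRNAs tested. By direction, 0 members were higher, against 2.38% of all circRNAs tested, and 2 were lower, against 1.43%. At an unadjusted p under 0.05 there were 4 members (10.3%), all lower, against 12.4% of all circRNAs tested (8.1% higher and 4.29% lower). Counted in either direction, the members' shares of calls were close to the background. The split by direction is not read against it, because the rule requires reads in every well-watered library and the background has no such requirement. The second scaling used below is TMM (trimmed mean of M-values), which sets library factors from circRNAs of moderate abundance and change. With TMM, 1 member had an adjusted p under 0.05 (2.56%), again lower, against 3.81% of all circRNAs tested (2.86% higher and 0.952% lower). At an unadjusted p under 0.05 TMM gave 2 members higher and 2 lower, against 12.4% of all circRNAs tested (10.5% higher and 1.9% lower).

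With the core sum as library size, the summed reads of the members show no change by construction. The median log2 fold change, drought over well-watered, was -0.20 over the 39 members with core-sum scaling, with 15 above 0 and 24 below, and the values ran from -2.53 to 1.18. Over all 210 circRNAs tested the median was 0.77, with 138 above 0. Of the 210, 61 had no reads in any well-watered library and 3 had none in any drought library, and their fitted values depend on the prior count. The rule leaves such circRNAs out of the core, so both medians are given as a description. Over the 77 circRNAs with at least 30 reads the median was 0.21. TMM shifted the members upward by a median of 0.29, to a median of 0.13 with 21 above 0 and 18 below, so the sign of a small change depends on the scaling. Beyond 1 on the log2 scale there were 9 members below and 1 above with the core sum, and 4 below and 1 above with TMM.

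**Figure D3:**
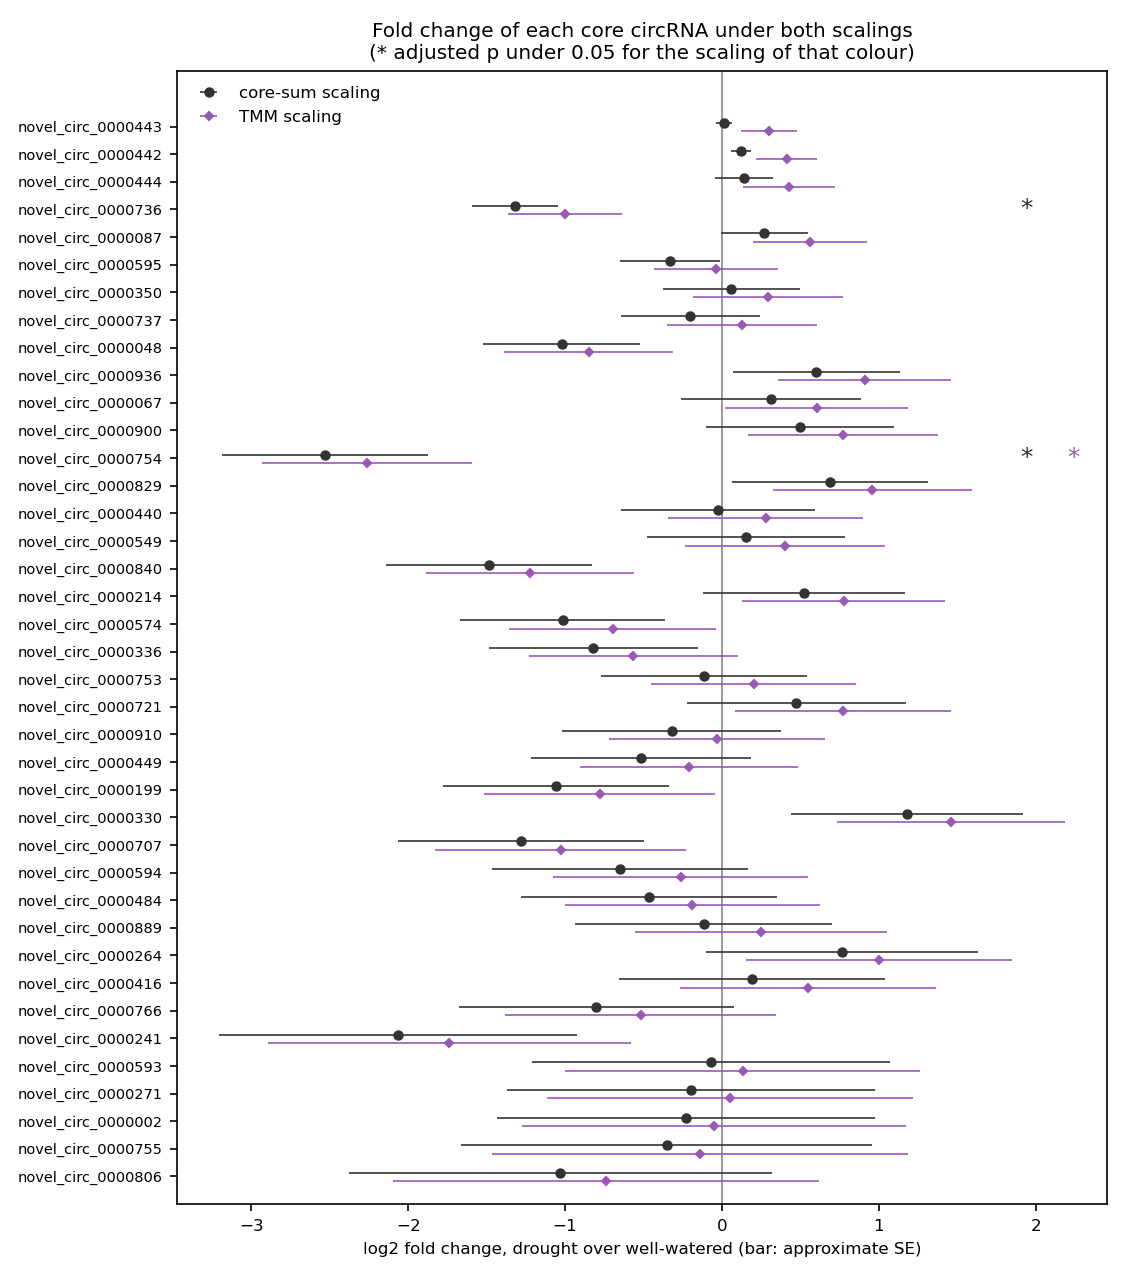
log2 fold change, drought over well-watered, of each core circRNA with core-sum scaling (dark circles) and TMM scaling (purple diamonds). Bars are the approximate standard error and asterisks mark an adjusted p under 0.05. novel_circ_0000754 passes under both scalings, novel_circ_0000736 passes with the core sum only, and the medians are -0.20 and 0.13.

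novel_circ_0000736 fell under drought with core-sum scaling. Its reads numbered 107, 112 and 49 under drought, against 151, 90 and 117 in the well-watered libraries. Every drought library was below every well-watered one in share, with 1.22% ± 0.247 of core reads under drought and 3.06% ± 1.02 in the well-watered group (SD over 3 libraries per group). The nearest libraries were drought replicate 1 at 1.51% (95% Wilson interval 1.25% to 1.82%) and well-watered replicate 2 at 1.93% (1.57% to 2.36%). The log2 fold change was -1.32 ± 0.27 (approximate SE, edgeR quasi-likelihood adjusted p = 0.000184). This fit took its spread from circRNAs of similar abundance, while the within-group variance of novel_circ_0000736 was 9.24 times that expected from counting. In core-sum fits that also used the member's own spread, the edgeR adjusted p was 0.0153, 0.0190 and 0.00729. These fits used a minimum of 30 reads, edgeR's expression filter (filterByExpr) and legacy = FALSE, in the same order. With TMM the log2 fold change was -0.999 ± 0.36 and did not pass (edgeR adjusted p = 0.129). Without any 1 drought library it also did not pass, with edgeR adjusted p of 0.0873, 0.268 and 0.252 without replicates 1, 2 and 3, at log2 fold changes of -1.497, -1.26 and -1.22. Relative to novel_circ_0000443, which needs no scaling, its reads were 2.97%, 2.41% and 2.15% under drought and 8.34%, 3.90% and 7.01% in the well-watered group, again without overlap.

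novel_circ_0000754 fell under drought with both scalings. Its reads numbered 10, 7 and 6 under drought, against 17, 41 and 22 in the well-watered libraries, although the drought libraries held more circRNA reads on average. Its share of core reads was 0.113% ± 0.0378 under drought and 0.650% ± 0.219 in the well-watered group (SD over 3 libraries per group). The nearest libraries were both replicate 1, with 0.141% under drought (95% Wilson interval 0.0764% to 0.259%) and 0.439% in the well-watered group (0.274% to 0.702%). The log2 fold change was -2.53 ± 0.65 with the core sum (approximate SE, edgeR adjusted p = 0.00492) and -2.26 ± 0.67 with TMM (edgeR adjusted p = 0.0229). In the core-sum fit it did not pass without drought replicates 1, 2 or 3 (edgeR adjusted p of 0.0873, 0.268 and 0.205) or without well-watered replicate 2 (0.115), at log2 fold changes between -2.75 and -2.25. With all libraries the estimated prior degrees of freedom of that fit were infinite. The spread used for a circRNA then came wholly from circRNAs of similar abundance. Without drought replicates 1, 2 and 3 the prior degrees of freedom were 4.74, 4.38 and 5.89. With all libraries they were also finite with a minimum of 30 reads, filterByExpr and legacy = FALSE, at 9.47, 5.68 and 10.9. In those core-sum fits novel_circ_0000754 passed, with edgeR adjusted p of 0.0153, 0.0103 and 0.00729. Why it did not pass without a drought library was not tested.

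2 more members had an unadjusted p under 0.05 and failed the correction. novel_circ_0000840 had 6, 24 and 10 reads under drought, against 17, 17 and 25 in the well-watered libraries, with shares of 0.179% ± 0.0830 and 0.508% ± 0.188 (SD over 3 libraries per group) that did not overlap. On the log2 scale the fold change was -1.48 ± 0.66 (approximate SE, edgeR unadjusted p = 0.0238, adjusted p = 0.357). novel_circ_0000048 had 22, 13 and 35 reads under drought, against 21, 39 and 34 in the well-watered libraries. Its shares overlapped, because drought replicate 3 lay within the well-watered range. The fitted log2 value was -1.02 ± 0.50 (approximate SE, edgeR unadjusted p = 0.0421, adjusted p = 0.365), and -0.58 without drought replicate 2. With TMM neither had an unadjusted p under 0.05 (edgeR unadjusted p = 0.0661 for novel_circ_0000840 and 0.115 for novel_circ_0000048). Instead novel_circ_0000442, at a log2 fold change of 0.41, and novel_circ_0000330, at 1.46, then had unadjusted p of 0.0323 and 0.0451 in the higher direction (edgeR adjusted p = 0.323 and 0.351).

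For the most abundant members the intervals were narrow with core-sum scaling and wider with TMM. With core-sum scaling the log2 fold change of novel_circ_0000443 was 0.01 (approximate 95% interval -0.08 to 0.11, edgeR adjusted p = 0.929). That of novel_circ_0000442 was 0.12 (-0.00267 to 0.24, edgeR adjusted p = 0.365), and that of novel_circ_0000444 was 0.14 (-0.22 to 0.51, edgeR adjusted p = 0.761). These values are tied to the scaling, since the leading pair makes up most of the core sum. With TMM the log2 fold changes were 0.30 (approximate 95% interval -0.0465 to 0.650), 0.41 (0.0354 to 0.789) and 0.43 (-0.148 to 1.01). None of the 3 passed (edgeR adjusted p = 0.351, 0.323 and 0.371). novel_circ_0000087 was at 0.27 (-0.27 to 0.82) and novel_circ_0000595 at -0.33 (-0.96 to 0.30), and neither passed with either scaling. For members under 1% of the core the approximate SE had a median of 0.70 and ran from 0.44 to 1.35 on the log2 scale. These SE reflect read counts and a spread shared by circRNAs of similar abundance, not the spread of the member itself.

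Of the rest of the 10 most abundant members none passed the test, and the groups overlapped. novel_circ_0000350 had 0.799% ± 0.331 of core reads under drought and 0.761% ± 0.0475 in the well-watered group. novel_circ_0000737 had 0.689% ± 0.233 and 0.798% ± 0.108 in the same order. For novel_circ_0000936 the shares were 0.624% ± 0.147 and 0.412% ± 0.167 (SD over 3 libraries per group for all of these). Their log2 fold changes with the core sum were 0.06, -0.20 and 0.60 (edgeR adjusted p = 0.955, 0.865 and 0.583).

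Shares were also compared without a model. In 10 members (25.6%) every library of one group exceeded every library of the other, 3 higher and 7 lower under drought, against 18.6% of all circRNAs tested. By direction this was 7.69% of the members higher, against 13.8% of all tested, and 17.9% lower, against 4.76%. These shares are a description, since the rule used the same counts, and 7 of the 10 circRNAs lower in the background are the members themselves. The split moved with the denominator. With TMM-adjusted totals 3 members were higher and 5 lower, against 17.6% of all tested in either direction (14.3% higher and 3.33% lower). With library totals 1 member was higher and 8 lower, against 17.1% (11.9% higher and 5.24% lower). With the sum of the core without its 3 most abundant members 6 were higher and 4 lower, against 20% (16.7% higher and 3.33% lower).

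The 3 members higher without overlap were novel_circ_0000442, novel_circ_0000330 and novel_circ_0000264, and none passed the test. novel_circ_0000330 had 21, 42 and 18 reads under drought, against 6, 6 and 7 in the well-watered libraries. Its share was 0.366% ± 0.0637 under drought and 0.162% ± 0.0371 in the well-watered group (SD over 3 libraries per group), a ratio of 2.27 and the highest in the core. The fitted log2 fold change was 1.18 ± 0.74 (approximate SE, edgeR unadjusted p = 0.111, adjusted p = 0.365). novel_circ_0000264 had 15, 19 and 18 reads under drought and 6 reads in each well-watered library, a share of 0.262% ± 0.107 under drought and 0.152% ± 0.0224 in the well-watered group. The counts of both were low in all 3 well-watered libraries alike.

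Lower without overlap, besides novel_circ_0000736, novel_circ_0000754 and novel_circ_0000840, were 4 members of low abundance. novel_circ_0000336 had 0.235% ± 0.0602 of core reads under drought and 0.410% ± 0.0783 in the well-watered group. novel_circ_0000766 had 0.145% ± 0.0169 and 0.254% ± 0.0393 in the same order. novel_circ_0000241 had 0.0549% ± 0.0216 under drought and 0.243% ± 0.128 in the well-watered group, with well-watered replicate 2 close to the drought values. novel_circ_0000806 had 0.0752% ± 0.00885 under drought and 0.155% ± 0.0618 in the well-watered group (SD over 3 libraries per group for these 4). In novel_circ_0000806 the groups were nearly in contact, with 4 reads in drought replicate 3 and 3 reads in well-watered replicate 3. None of these 4 had an unadjusted p under 0.05 in the edgeR test.

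**Figure D4:**
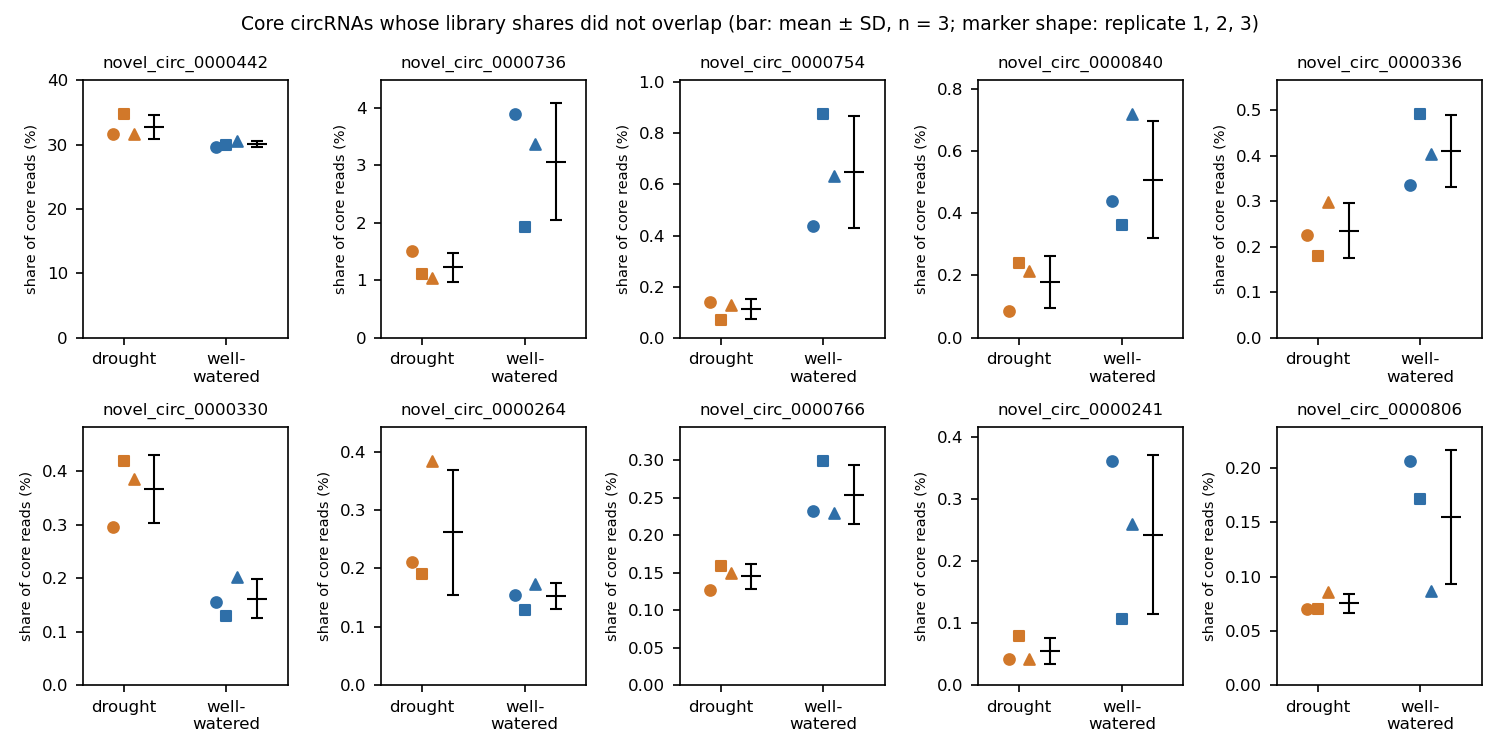
Share of core reads (%) in each library for the 10 core circRNAs whose drought libraries (orange, left) and well-watered libraries (blue, right) did not overlap. Bars are the mean and SD (n = 3) and marker shapes the replicate. novel_circ_0000754 shows the largest ratio, with 0.113% under drought and 0.650% in the well-watered group.

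The balance between the leading members and the rest also differed. It is given as a description, since the rule used the same counts. Most circRNAs that missed the rule by 1 library lacked reads in a well-watered one. The 3 most abundant members held 85.8% ± 1.26 of core reads under drought and 82.3% ± 2.05 in the well-watered group (SD over 3 libraries per group), with every drought library above every well-watered one. The other 36 members held 12.9%, 14.4% and 15.4% under drought and 20.1%, 16.5% and 16.6% in the well-watered group. In reads they had 914, 1439 and 720 under drought and 778, 770 and 577 in the well-watered group. Of the mean difference of -3.53 percentage points, novel_circ_0000736 alone made up -1.84. The 35 remaining members held 12.97% ± 1.505 under drought and 14.7% ± 1.48 in the well-watered group (SD over 3 libraries per group), and there the groups overlapped.

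The inverse Simpson index is the number of equally abundant circRNAs that would give the same value as the core. It was 2.78, 2.95 and 2.94 in the drought libraries, against 3.21, 2.97 and 3.04 in the well-watered ones. The means were 2.89 ± 0.0953 under drought and 3.07 ± 0.123 in the well-watered group (SD over 3 libraries per group). Their difference was -0.19, and it was -0.14 and -0.084 under core rules of at least 5 and 10 reads. The groups were separated by little, as drought replicate 2 and well-watered replicate 2 differed by less than the spread within either group. Among the 36 members after the first 3 the index was 16.2 ± 2.28 under drought and 15.3 ± 3.79 in the well-watered group, a difference within the spread.

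Replicates of a group differed by more than counting error. The observed variance within groups, divided by that expected from counting alone, had a median of 2.44 over the members and was above 1 in 33 of the 39. It ran from 0.206 for novel_circ_0000766 to 12.5 for novel_circ_0000087, which had 97, 292 and 110 reads under drought, against 88, 74 and 57 in the well-watered libraries. It was 10.7 for novel_circ_0000048, 9.24 for novel_circ_0000736 and 7.27 for novel_circ_0000594. The values of 4.91 for novel_circ_0000443 and 4.34 for novel_circ_0000442 cannot be set against these. Expected counts were scaled to the core sum, of which this pair is the largest part. Counting alone then gives a value well below 1 for the pair, so their excess over counting is understated. For novel_circ_0000754 it was 2.11.

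Within 1 group the widest ranges of share belonged to members with few reads. novel_circ_0000199 had 2, 26 and 11 reads under drought, against 22, 15 and 7 in the well-watered libraries, so its share varied 9.22-fold among the drought libraries. novel_circ_0000594 had 13, 22 and 5 reads under drought, against 24, 5 and 3 in the well-watered libraries, a 7.18-fold range among the well-watered libraries. The well-watered range of novel_circ_0000889 was 6.73-fold. At the other end, novel_circ_0000443 varied by 1.09-fold among the drought libraries and by 1.06-fold among the well-watered ones.

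**Figure D5:**
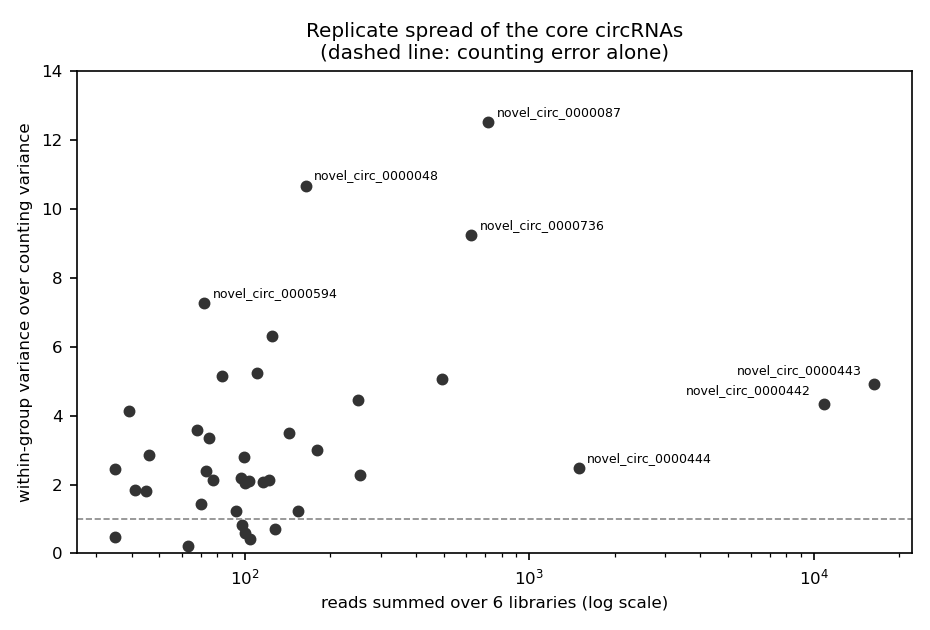
Within-group variance of each core circRNA divided by the variance expected from counting error (4 degrees of freedom), against its reads summed over the 6 libraries (log scale). In 33 of 39 members the value is above the dashed line at 1, and novel_circ_0000087 is highest at 12.5. For novel_circ_0000443 and novel_circ_0000442 counting alone gives less than 1, since they make up most of the core sum.

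The order of the members was more alike within groups than between them on average, with overlapping ranges. Across the 39 members, Spearman's rho between libraries averaged 0.715 ± 0.106 within groups (SD over 6 pairs) and 0.591 ± 0.0572 between groups (SD over 9 pairs). The lowest value of all, 0.514, was between well-watered replicates 1 and 2. Without the 3 most abundant members the means were 0.638 within groups and 0.479 between groups. Members are not independent replicates, and the libraries differ in their circRNA reads. The chi-square per degree of freedom between libraries of 1 group was from 2.03 to 4.29, against 1 for counting error alone. This value shows spread beyond counting error, but it cannot tell separate plants from technical repeats. PCR copies counted more than once would raise this value.

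Of the 39 members, 11 carry numbers that follow each other directly, in 4 runs. What consecutive numbers mean for genome position is not given in the sources used here, and 83.1% of the 563 listed circRNAs have a listed neighbour in number. The 3 most abundant members form 1 run, 442 to 444. novel_circ_0000593 and novel_circ_0000594 stand with novel_circ_0000595, and novel_circ_0000736 with novel_circ_0000737. The last run is novel_circ_0000753, novel_circ_0000754 and novel_circ_0000755.

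Both members that fell have a neighbour in number that did not pass the test. These pairs were chosen after their values were seen, so their ratios were not tested. novel_circ_0000737 had 62, 77 and 20 reads under drought, against 28, 35 and 32 in the well-watered libraries. The ratio of novel_circ_0000736 to it was 1.73, 1.45 and 2.45 under drought and 5.39, 2.57 and 3.66 in the well-watered group, without overlap. novel_circ_0000753 had 35, 24 and 9 reads under drought, against 7, 26 and 9 in the well-watered libraries. The ratio of novel_circ_0000754 to it was 0.286, 0.292 and 0.667 under drought, against 2.43, 1.58 and 2.44 in the well-watered group. novel_circ_0000754 thus had fewer reads than novel_circ_0000753 in every drought library and more in every well-watered library, an order that no scaling can change. Against novel_circ_0000755, which had 3 to 9 reads per library, the ratio ran from 0.667 to 1.75 under drought and from 2.43 to 7.33 in the well-watered group.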

How the data were processed

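The authors deposited 1 table with a read count and a TPM per circRNA and library, per the file headers. Read counts are whole numbers, not normalized, and the lowest above 0 is 2. Deposited TPM is the count divided by 1 constant per library, with no length term, so shares within the core are the same from either unit. DESeq 1.24.0 is named in the submitters' processing notes, with no role. The aligner, circRNA caller and genome build are not given in the sources used here. All 12 columns matched a library by its title.

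Shares are percentages of the summed core reads (3473 to 10024 per library). Tests used edgeR 4.0.16 (R 4.3.3; glmQLFit, glmQLFTest, package defaults) with the core sum as library size, on circRNAs with at least 10 reads. P-values were adjusted over all 210 by the Benjamini-Hochberg method. Standard errors are approximate and were taken as |log2 fold change| / √F. Ratios of members used exact permutation tests (SciPy 1.17.1). The fit was tested on simulated data. Alternatives were other scalings and filters, DESeq2 1.42.0, limma 3.58.1 on log2(TPM + 1) and log2(TPM + 10), dispersion settings, a replicate block, left-out libraries and stricter core rules. Members named were the 10 most abundant, those with an adjusted p under 0.05 with the core sum or TMM, those with an unadjusted p under 0.05, the 3 with the widest range within a group and 3 each just inside and outside the rule. Members without overlap and pairs of consecutive numbers were named after their values were seen. The members and lists were chosen with earlier results of these data known.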

Additional observations from a re-analysis of the deposited data

How the results depend on the processing

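The 2 members with an adjusted p under 0.05, both lower under drought, became 1 with TMM, 1 with the core sum without its 3 most abundant members, 1 with a replicate block (novel_circ_0000754 then had an edgeR adjusted p of 0.0833) and 1 under a core rule of at least 10 reads, which leaves out novel_circ_0000754. They became 0 with DESeq2 and 0 with limma at both pseudocounts, with 3, 2 and 2 members at an unadjusted p under 0.05. Of all 210 circRNAs tested, 1 passed with DESeq2 and 17 with limma at each pseudocount. All of these were higher under drought. The unadjusted counts over all 210 were 17, 23 and 25 in the same order. In the main fit 8 of 210 passed, and with the replicate block 5. With DESeq2 on the core sum both members passed, among 8 of 210. Without each library in turn the number ran from 0 to 2 in total and from 0 to 2 lower, with 0 higher throughout. Calls over all circRNAs tested also changed. Without drought replicates 1, 2 and 3 they were 2 of 173, 1 of 157 and 1 of 181. Without well-watered replicates 1, 2 and 3 they were 8 of 196, 2 of 199 and 7 of 204. novel_circ_0000736 and novel_circ_0000754 each passed in 13 of 21 settings and were lower in all 21. No pairing by replicate number was seen, although low counts could hide one. Same-numbered deviations correlated at 0.0966, -0.0131 and 0.0246, and differently numbered ones from -0.0788 to 0.0562. The block changed no other call of a member. The difference in core share was -6.79 points with a minimum of 10 reads and -4.41 against the totals behind the TPM. The difference in share of novel_circ_0000443 was 0.48 points of core reads, -0.29 with a minimum of 10 reads, and -3.73 points of library totals. With the exponential of Shannon entropy the difference in effective number was -0.64, against -0.19 with the inverse Simpson index. Members without overlap ran from 11 to 17 without each library, since fewer libraries overlap less. The share over all circRNAs tested was not taken for these sets, so these counts cannot be read against a background.

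Of 354 alternative values for the 17 named members, 319 kept their direction. None of the 35 reversals concerned a member with an adjusted p under 0.05. With library totals the log2 fold change was -0.13 for novel_circ_0000443, -0.0238 for novel_circ_0000442, -0.00351 for novel_circ_0000444 and -0.0834 for novel_circ_0000350. With the totals behind the TPM it was -0.0905 for novel_circ_0000443 and -0.0450 for novel_circ_0000350. With limma at pseudocounts 1 and 10 it was -0.0909 and -0.0909 for novel_circ_0000443, -0.11 and -0.11 for novel_circ_0000350, and 0.0672 and 0.0629 for novel_circ_0000889. novel_circ_0000350 was at -0.0250 with legacy = FALSE and -0.00902 with the replicate block, where novel_circ_0000889 was at 0.0702. With TMM novel_circ_0000737, novel_circ_0000889 and novel_circ_0000271 were at 0.13, 0.25 and 0.0536. Without the 3 most abundant members in the sum they were at 0.13, 0.28 and 0.0854, and novel_circ_0000595 at 0.00493. With DESeq2 size factors in edgeR novel_circ_0000889 and novel_circ_0000271 were at 0.15 and 0.00530, and with DESeq2 at 0.15 and 0.00833. Without each library the values ran from -0.0171 to 0.0476 for novel_circ_0000443, -0.32 to 0.27 for novel_circ_0000350, -0.40 to 0.0404 for novel_circ_0000737, -1.05 to 0.81 for novel_circ_0000594, -0.55 to 0.48 for novel_circ_0000889 and -0.56 to 0.22 for novel_circ_0000271. The cause of these differences was not tested.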
